A study of Mus musculus with 8 samples.

Results

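The nuclear-encoded genes of oxidative phosphorylation were examined as a set of 90 genes. They were chosen by symbol, as protein-coding genes with reads whose names begin with Nduf, Uqcr, Cox4 to Cox8 or Atp5, or are Sdha, Sdhb, Sdhc or Sdhd, so that the factors which assemble complex I are included. They made up 90 of 46983 genes in the deposited table, of 27486 genes with reads and of 17331 protein-coding genes with reads. The set held 36 subunits of complex I, 7 complex I assembly factors, 4 subunits of complex II and 8 of complex III. It also held 18 genes grouped with complex IV and 17 grouped with complex V. Apart from Ndufa4 and Ndufa4l2, which were grouped with complex IV, these groups follow the symbol and not the known function. The complex IV group includes Cox7a2l, a factor for joining complexes. The complex V group includes Atp5sl, placed there by symbol alone, whose RefSeq symbol is Dmac2. Cox7b2 and Cox8c also match by name but were listed at 0 in every library and so lay just outside the set, while Cox8b, with a mean normalized count of 5.07, lay just inside.

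Oxidative phosphorylation is the process by which mitochondria turn the energy of nutrients into ATP. Complexes I to IV pass electrons from NADH and succinate to oxygen, complexes I, III and IV pump protons across the inner membrane as they do so, and complex V, the ATP synthase, lets the protons flow back to make ATP. Most subunits are encoded in the nucleus and imported, while a few core subunits are encoded by mitochondrial DNA. Microglia, the resident macrophages of the brain, can shift between oxidative phosphorylation and glycolysis when they are activated.

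Total RNA was sequenced in 8 libraries of corpus callosum microglia, and the mice had an FvB/C57BL6 hybrid background. All mice carried Cx3cr1-CreER, a tamoxifen-inducible Cre recombinase under the Cx3cr1 gene, which is active in microglia and other Cx3cr1-expressing cells. All received tamoxifen at 8 weeks of age and then 0.2% cuprizone, a copper-binding compound toxic to the oligodendrocytes that make myelin, in the feed for 6 weeks. The group called WT carried 1 loxP-flanked Qk allele (QKLoxP/+) and the group called Qk-KO carried both (QKLoxP/LoxP), so WT mice also had Cre and need not have had intact Qk, which encodes the RNA-binding protein quaking. By sample name there were 4 WT and 4 Qk-KO libraries. A separate genotype entry in the labels contradicts that name for numbers 2 and 3 of the WT-named and 1 and 3 of the Qk-KO-named libraries. Both groupings were therefore tested, libraries are called by name as WT-named 1 to 4 and Qk-KO-named 1 to 4, and no difference is assigned to a genotype. Since nothing in the labels ties a library to its own animal, the p-values cover the spread between libraries only, which may be technical.

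Several features of the libraries moved with the names. Rough totals of assigned reads were 59.7 to 69.7 M in the WT-named libraries and 43.9 to 58.5 M in the Qk-KO-named libraries, lowest in Qk-KO-named 3, and the size factors did not overlap (1.05 to 1.26 against 0.753 to 0.997). Qk itself was at 15.37 to 15.50 in WT-named and 15.29 to 15.69 in Qk-KO-named on the regularized log2 scale, a difference of 0.08 (95% interval -0.11 to 0.27; limma, Benjamini-Hochberg adjusted p = 0.819). All 8 microglia markers examined were abundant, at 139 to 5878 CPM, which are counts scaled to a common library total. Of these, 6 had a lower mean in the Qk-KO-named libraries, and the mean microglia marker level did not overlap, at 15.89 to 16.08 in the WT-named and 15.46 to 15.76 in the Qk-KO-named libraries on the log2 scale. The markers of other cell types lay between 0.368 and 184 CPM and none was at 0. All 5 astrocyte, all 5 mural, all 5 oligodendrocyte, all 5 erythroid, all 5 neutrophil, all 4 neuron and 3 of 4 endothelial markers had a lower mean in the Qk-KO-named libraries. The mean astrocyte marker level was 10.22 to 11.86 in WT-named and 8.74 to 11.60 in Qk-KO-named libraries on the log2 scale. The part of depth and of these cells in the results below was not tested, and in bulk RNA fewer cells of a type cannot be told apart from less RNA per cell.

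Promoter sequences are shown first for the members on which the results turn. Ndufaf7 and Atp5h are shown because their named groups did not overlap. The same held for Cox4i1, which had no matched window, and for Cox6b2, whose window held none of the motifs searched and is not printed. The subunit c genes Atp5g1, Atp5g2 and Atp5g3 are shown because they encode the same protein subunit and differed in level and in spread, a choice made after their values were seen. Each run is the 250 bases before the RefSeq start on GRCm38.p6, written 5′ to 3′ on the gene's own strand. Capitals mark matches to GCGCANGCG, bound by NRF1, and to CCGGAAGT, bound by ETS factors such as GABP, on either strand.
Ndufaf7, chr17:78936885-78937134, plus strand: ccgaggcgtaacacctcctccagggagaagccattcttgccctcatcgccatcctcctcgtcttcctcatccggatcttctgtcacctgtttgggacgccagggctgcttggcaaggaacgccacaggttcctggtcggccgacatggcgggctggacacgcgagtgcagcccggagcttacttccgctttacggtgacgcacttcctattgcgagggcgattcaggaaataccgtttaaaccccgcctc
Atp5h, chr11:115419920-115420169, minus strand: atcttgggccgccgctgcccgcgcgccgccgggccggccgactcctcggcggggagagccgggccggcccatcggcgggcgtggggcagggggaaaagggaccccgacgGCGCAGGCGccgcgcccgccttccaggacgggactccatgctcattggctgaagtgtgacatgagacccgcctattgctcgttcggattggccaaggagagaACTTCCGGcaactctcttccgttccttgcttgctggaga
Atp5g1, chr11:96075632-96075881, minus strand: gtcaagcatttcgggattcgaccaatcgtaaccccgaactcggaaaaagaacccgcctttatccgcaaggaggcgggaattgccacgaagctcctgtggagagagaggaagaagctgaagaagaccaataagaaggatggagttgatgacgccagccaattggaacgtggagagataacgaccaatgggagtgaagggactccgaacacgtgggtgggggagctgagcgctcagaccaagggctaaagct
Atp5g2, chr15:102671048-102671297, minus strand: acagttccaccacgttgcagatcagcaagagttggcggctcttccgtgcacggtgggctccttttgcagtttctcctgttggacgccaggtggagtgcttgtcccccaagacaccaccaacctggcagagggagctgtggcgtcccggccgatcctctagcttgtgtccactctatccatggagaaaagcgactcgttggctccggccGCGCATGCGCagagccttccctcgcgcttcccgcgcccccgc
Atp5g3, chr2:73911327-73911576, minus strand: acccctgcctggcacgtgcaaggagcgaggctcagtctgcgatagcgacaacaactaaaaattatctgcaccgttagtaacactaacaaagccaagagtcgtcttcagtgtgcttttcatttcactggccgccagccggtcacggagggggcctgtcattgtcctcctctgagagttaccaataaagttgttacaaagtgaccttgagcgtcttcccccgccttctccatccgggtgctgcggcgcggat

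Among these windows Atp5h had an NRF1 match that began 141 bases before the start and an ETS match 39 bases before it. Atp5g2 had an NRF1 match read on both strands of 1 palindromic stretch, from 42 and 41 bases before the start. The printed windows of Ndufaf7, Atp5g1 and Atp5g3 held neither motif nor AAGATGGCG, bound by YY1. NRF1 and GABP are textbook regulators of respiratory chain genes. RefSeq windows from 250 bases before to 50 bases after the start were matched for 75 of the 90 members. The NRF1 motif was in 22 of the 75 (29.3%), against 7.03% of all 27025 genes with a window, and Atp5g3 is among the 22 through a match that reaches into the 50 bases after the start, which are not printed. The ETS motif was in 5 (6.67%) against 4.31%, and the YY1 motif in 8 (10.7%) against 1.64%. At least 1 of the motifs was in 32 of the 75 members, against 11.9% of all genes, and the median GC content was 58.3% in the members against 52.7% in all genes, which was not corrected for in these shares. Members with the NRF1 motif had a median level of 50.4 CPM per kb of transcript and those without it 33.7 CPM per kb. The medians with and without the ETS motif were 90.04 and 35.5 CPM per kb, and with and without the YY1 motif 26.1 and 39.3 CPM per kb. A match describes letters and is not a measured binding site. Members without a matched window included Ndufaf6, Ndufa2, Ndufb9, Ndufs1, Sdhc, Uqcrb, Uqcrc2, Uqcrq, Cox4i1, Cox6c, Cox6a2, Ndufa4l2, Cox4i2 and Atp5a1.

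Levels of the members were compared per length, as the authors' mean normalized count over all libraries in CPM per kb of the principal transcript, and so carry no SD or n. The 90 genes together took 4211 CPM, and 85 of them were at 1 CPM or more. Complex V had the highest median level, at 58.2 CPM per kb, followed by complex III at 53.0, complex II at 46.2, complex IV at 43.0 and the complex I subunits at 26.0. The complex I assembly factors, which bind the complex only while it is built, were at 3.04 CPM per kb. The highest member of each group was Atp5b, the catalytic beta subunit of the ATP synthase, at 200.9 CPM per kb, Uqcrh, the hinge protein of complex III, at 167, Sdha, the flavoprotein that oxidizes succinate, at 57.4, Cox4i1, a regulatory subunit of complex IV, at 290.1, the accessory subunit Ndufa6 at 74.1 and the assembly factor Ndufaf7 at 8.52. These ranks depended on the length used: with all annotated exons merged, Cox8a, a small complex IV subunit, was at 202 CPM per kb and above Cox4i1 at 141.

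**Figure D1:**
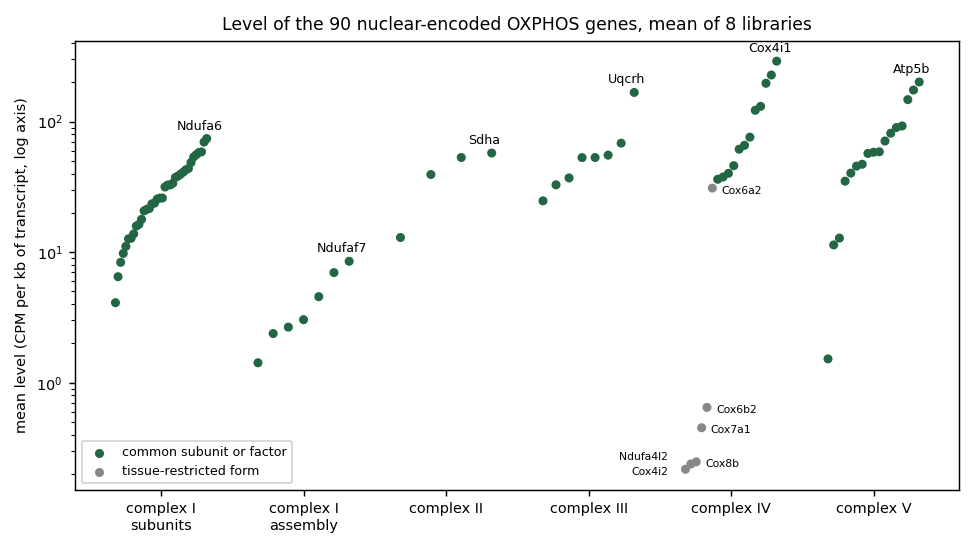
Mean level of each of the 90 genes over 8 libraries in CPM per kb of principal transcript, on a log axis, by complex and in rising order within each. Green points are common subunits or factors and grey points tissue-restricted forms, of which Cox6a2 alone lies with the common subunits, at 30.9 CPM per kb.

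Complex IV has tissue-restricted subunit forms that replace the common ones in muscle, lung, testis or low oxygen, and the libraries held mostly the common forms. Cox6a2, the form of heart and skeletal muscle, was the exception, at 30.9 CPM per kb against 130.8 for the common Cox6a1, a 4.23-fold lower level (3.44-fold with merged exons). The muscle forms Cox7a1 and Cox8b were 101-fold and 915-fold below Cox7a2 and Cox8a per kb. Cox4i2, a form of lung and low oxygen, was 1333-fold below Cox4i1, the testis form Cox6b2 was 188-fold below Cox6b1, and the hypoxia-induced Ndufa4l2 was 158-fold below Ndufa4. All 5 of these low forms were under 1 CPM, and over both lengths the folds lay between 71.1 and 1333.

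Cox6a2 (chromosome 7, 128205435 to 128206387, minus strand) varied between libraries more than its common counterpart. Its log2 values were 10.50, 10.23, 10.13 and 9.95 in WT-named 1 to 4 and 10.22, 10.21, 10.62 and 9.70 in Qk-KO-named 1 to 4. The lowest value of each group was in library 4, and the groups overlapped. The difference between named groups was -0.02 (SE 0.19, 95% interval -0.44 to 0.41; limma, adjusted p = 0.983), and was above 0 with libraries centred on their medians. Cox6a1 ranged from 11.98 to 12.20 in the WT-named and from 11.96 to 12.15 in the Qk-KO-named libraries, highest in library 4 of each group. Libraries 4 also had the highest astrocyte marker means of their groups, 11.86 and 11.60, and the highest oligodendrocyte marker means, 10.28 and 10.24, and the part of these cells was not tested. Exons of Cox6a2 share 70 bases with Itgad on the opposite strand. Whether strand was used in counting is unknown.

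The ATP synthase subunit c, which forms the rotating ring of the enzyme, is encoded by Atp5g1, Atp5g2 and Atp5g3, whose mature proteins are identical. Atp5g2 gave most of the transcript, at 174 CPM per kb, followed by Atp5g3 at 45.5 and Atp5g1 at 12.8. The order was the same with merged exons, at 61.0, 15.0 and 6.98 CPM per kb. Atp5g2 was steady, with an SD over 8 libraries of 0.05 on the log2 scale, while Atp5g3 had an SD of 0.21. The Atp5g3 values were 10.97, 10.48, 10.99 and 10.98 in WT-named 1 to 4 and 10.88, 10.59, 10.82 and 11.06 in Qk-KO-named 1 to 4. Library 2 of each group was low, the groups overlapped, and the difference was -0.01 (SE 0.14, 95% interval -0.32 to 0.29; limma, adjusted p = 0.983), above 0 with libraries centred on their medians. Atp5g2 has 2 pseudogenes that match it fully over 645 and 441 bases and were counted at 861 and 512 against 5799 mean normalized counts for the gene, so reads may have been split between them.

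The comparison of Qk-KO-named with WT-named asked whether the oxidative phosphorylation transcripts differed between the named groups in these cuprizone-fed mice. Because the genotype entry contradicts some names, neither a difference nor its absence is read here as an effect of Qk loss. Qk itself differed by 0.08 between the named groups, as given above. No member passed the threshold under either grouping. By sample name, limma called 0 of 90 members at a Benjamini-Hochberg adjusted p under 0.05 (0.00444% of all 22546 genes tested), and 3 members (3.33%) had an unadjusted p under 0.05, against 8.26% of all genes. Without Qk-KO-named 4 the latter count was 7, against 16.4% of all genes in the same fit. By genotype field, limma called 0 members, as it called 0% of all genes, and 1 member (1.11%) had an unadjusted p under 0.05, against 2.67%. The authors' deposited table gave an adjusted p for 85 members and called 0 of them, against 1.22% of its 14150 genes, with 1 member at an unadjusted p under 0.05, against 6.49%. All 90 members passed the filter on low values.

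The sizes of the differences were small as well as uncalled. The median limma difference over the members was 0.01 on the log2 scale by sample name, with 51 above and 39 below 0, against 0.00 for all genes tested. By genotype field it was 0.03, with 61 above and 29 below 0, against 0.00 for all genes, and was 0.002 without Qk-KO-named 3 and 0.003 with libraries centred on their medians. For 84 of the 85 members of at least 1 CPM, the whole 95% interval by sample name lay within 0.5 of 0, and for 72 within 0.3. By genotype field the counts were 82 and 72. The exception by sample name was Ndufa4. By complex, the median difference by sample name was 0.01 for complex I subunits, -0.04 for complex I assembly, -0.00 for complex II, 0.04 for complex III, -0.01 for complex IV and 0.03 for complex V. Shrinkage in the deposited values understates differences of low genes.

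**Figure D2:**
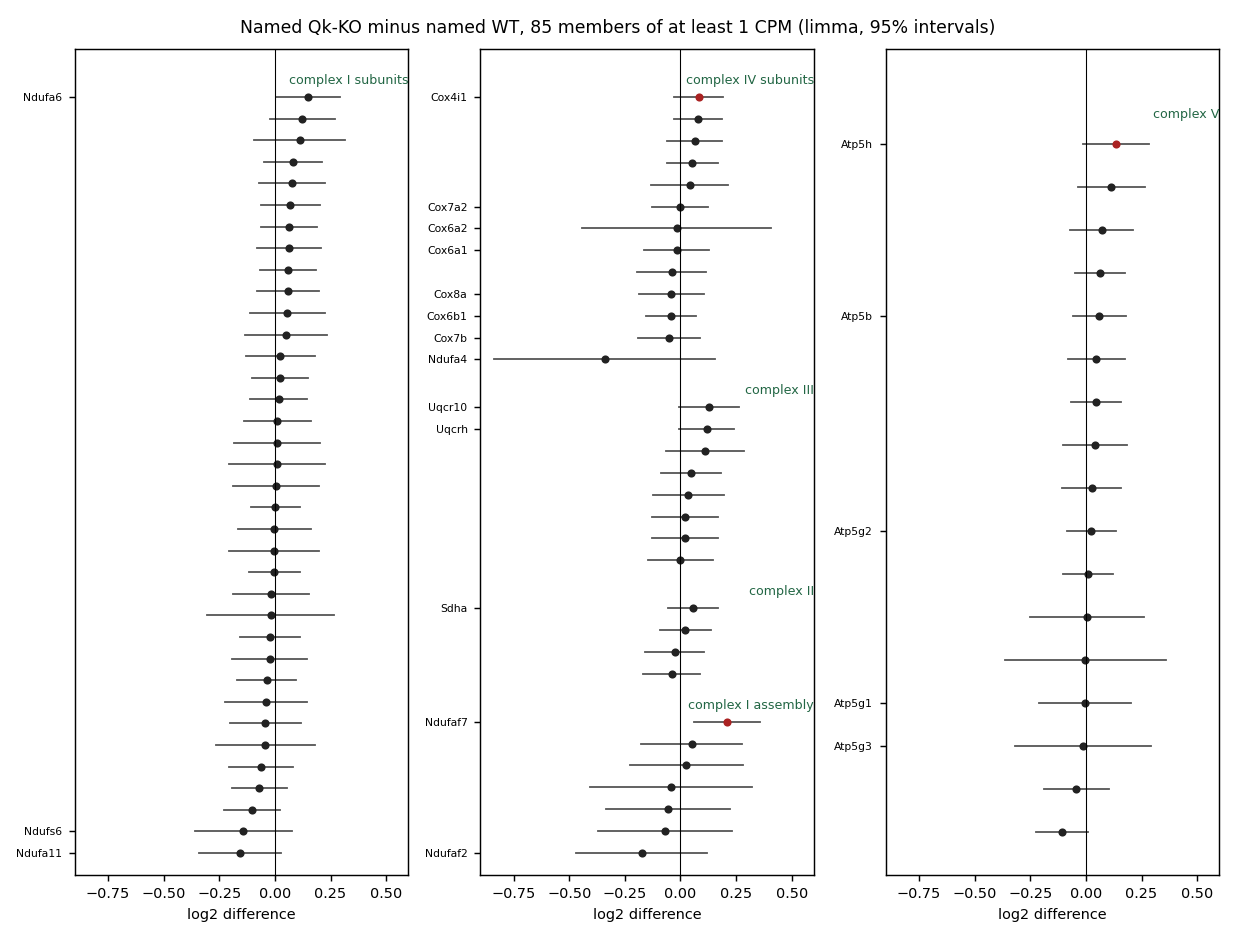
Limma difference, Qk-KO-named minus WT-named, on the log2 scale for the 85 members of at least 1 CPM, with 95% intervals, ordered by size within each complex, and with the genes named by rule labelled. Red points are members whose named groups did not overlap, and the interval of Ndufa4, from -0.84 to 0.16, is the widest.

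In 3 members every Qk-KO-named value lay above every WT-named value, against 3.04% of all genes, and in 1 every value lay below, against 2.70%. These were Ndufaf7, Cox4i1 and Atp5h, which were higher, and Cox6b2, which was lower. Fewer libraries must separate when 1 is left out, and the count of 4 by sample name then rose to 12 without Qk-KO-named 3 (8.10% of all genes under the same omission), 11 without Qk-KO-named 4 (15.7%) and 7 without WT-named 3 (8.83%) or without Qk-KO-named 1 (9.29%), while 5.73% of all genes did not overlap with all libraries. By genotype field 3 members had no overlap and were higher, against 0.931% of all genes, and 0 were lower, against 0.923%. The difference between the groupings was not tested.

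Ndufaf7, a methyltransferase that acts early in complex I assembly (ENSMUSG00000024082.4, chromosome 17, 78937136 to 78948052, plus strand, GRCm38), had the largest positive difference. Its log2 values were 9.59, 9.55, 9.68 and 9.64 in WT-named 1 to 4 and 9.73, 9.83, 9.91 and 9.83 in Qk-KO-named 1 to 4. All Qk-KO-named libraries lay above all WT-named libraries, and Qk-KO-named 3 was the highest. The means were 9.61 ± 0.05 and 9.82 ± 0.07 (SD, n = 4 each), a difference of 0.21 (SE 0.07, 95% interval 0.06 to 0.36), which is 1.16-fold on this scale. The unadjusted p was 0.0106 and the adjusted p 0.471 in limma, and the adjusted p in the authors' deposited table was 0.174, the smallest of the members. By genotype field the difference was 0.00 (95% interval -0.22 to 0.22; limma, adjusted p = 0.9995).

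Cox4i1 (chromosome 8, 120668222 to 120674207, plus strand) and Atp5h, subunit d of the peripheral stalk of the ATP synthase (chromosome 11, 115415689 to 115419962, minus strand), separated the named groups by a narrow margin. Cox4i1 was at 13.52, 13.58, 13.58 and 13.56 in WT-named 1 to 4 and 13.74, 13.61, 13.60 and 13.62 in Qk-KO-named 1 to 4. Qk-KO-named 1 stood above the rest, and the other 3 lay just above the highest WT values. The difference was 0.08 (SE 0.05, 95% interval -0.03 to 0.19; limma, adjusted p = 0.684), and 0.05 without Qk-KO-named 1. Atp5h was at 11.64, 11.43, 11.72 and 11.65 in WT-named 1 to 4 and 11.74, 11.76, 11.74 and 11.75 in Qk-KO-named 1 to 4. The Qk-KO-named values were almost equal, WT-named 2 was low, and the gap between the groups was small against the spread of the WT values. The difference was 0.13 (SE 0.07, 95% interval -0.01 to 0.28; limma, adjusted p = 0.642), and 0.07 without WT-named 2. Exons of Cox4i1 share 154 bases with Emc8 on the opposite strand, and Atp5h has 4 similar pseudogenes, the highest with a mean normalized count of 8.91.

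Cox6b2 (chromosome 7, 4751792 to 4753094, minus strand), the testis form of a complex IV subunit, was the member whose Qk-KO-named values all lay below the WT values. Its log2 values were 4.62, 4.48, 4.49 and 4.56 in WT-named 1 to 4 and 3.76, 4.25, 2.91 and 4.22 in Qk-KO-named 1 to 4. Qk-KO-named 3, the library with the lowest total, was the lowest. The gene was at 0.358 CPM, the difference was -0.75 (SE 0.28, 95% interval -1.39 to -0.11; limma, unadjusted p = 0.0257, adjusted p = 0.543), and the authors' deposited table gave no adjusted p for it. Without Qk-KO-named 3 the difference was -0.46.

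Ndufa4 (chromosome 6, 11900292 to 11907497, minus strand), long listed with complex I and now placed in complex IV, had the lowest difference and the widest spread of the 85 members of at least 1 CPM. Its log2 values were 10.34, 10.28, 10.25 and 10.24 in WT-named 1 to 4 and 10.43, 9.66, 9.36 and 10.30 in Qk-KO-named 1 to 4. Qk-KO-named 2 and 3 were low, while Qk-KO-named 1 was the highest of all libraries, so the groups overlapped. The SD was 0.04 in WT-named and 0.51 in Qk-KO-named (n = 4 each), and the difference was -0.34 (SE 0.22, 95% interval -0.84 to 0.16; limma, adjusted p = 0.697). It was -0.15 without Qk-KO-named 3.

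**Figure D3:**
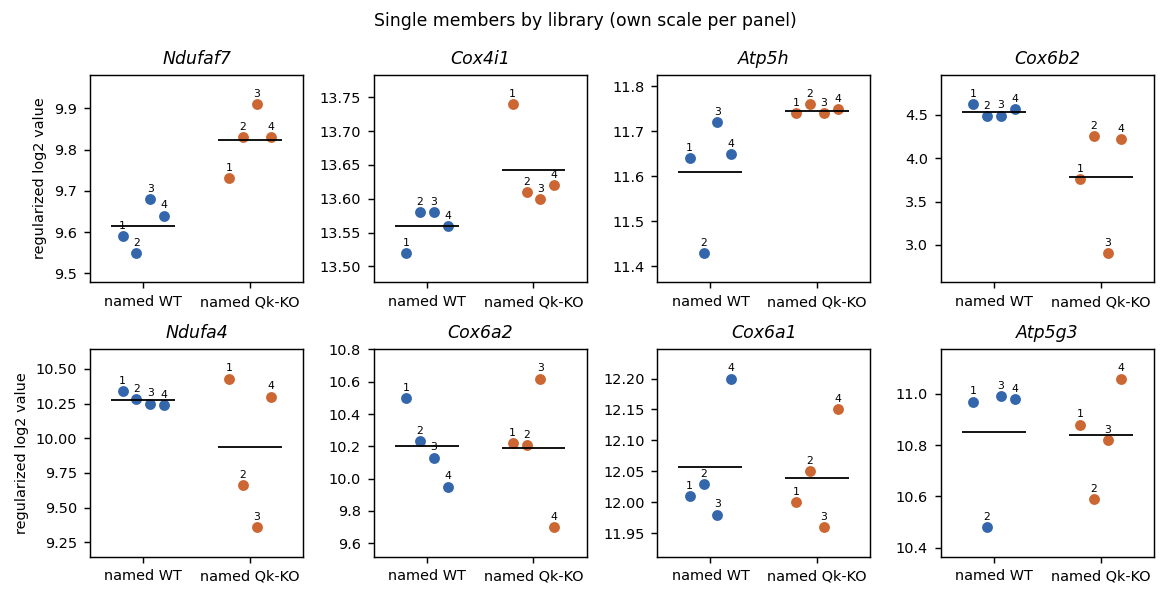
Regularized log2 values of 8 members in each library, with library numbers, WT-named in blue and Qk-KO-named in orange, and group means as lines (each panel has its own scale, which does not start at 0). Ndufaf7, Cox4i1 and Atp5h do not overlap in the upward direction and Cox6b2 in the downward one, while Ndufa4 is low in Qk-KO-named 2 and 3 only.

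The named groups overlapped for all 36 complex I subunits. Of these, 20 had differences above and 16 below 0, from -0.16 for Ndufa11 to 0.15 for Ndufa6, and 1 had an unadjusted p under 0.05. Ndufa6 was at 11.26, 11.21, 11.27 and 11.05 in WT-named 1 to 4 and 11.37, 11.41, 11.36 and 11.26 in Qk-KO-named 1 to 4. Only Qk-KO-named 4 overlapped the WT values, and the difference was 0.15 (SE 0.06, 95% interval 0.00 to 0.29; limma, unadjusted p = 0.0455, adjusted p = 0.595). Ndufa11, an accessory subunit of the membrane arm, was at 9.81, 9.66, 9.79 and 9.63 in WT-named 1 to 4 and 9.72, 9.53, 9.43 and 9.58 in Qk-KO-named 1 to 4. The groups overlapped through Qk-KO-named 1 (limma, adjusted p = 0.661). Ndufs6, an accessory subunit that carries zinc, differed by -0.14 (95% interval -0.36 to 0.08; limma, adjusted p = 0.707).

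Assembly factors of complex I were the least steady group. Their median SD over 8 libraries was 0.13 on the log2 scale and 1 of 7 had an SD under 0.1, against 23 of 36 complex I subunits, and their levels were also the lowest. Ndufaf2, which acts late in assembly, differed by -0.17 (95% interval -0.47 to 0.12; limma, adjusted p = 0.730), and an unstranded count could mix it with an antisense transcript that shares 1955 of its exon bases. Ndufaf1, an early assembly factor named here after its values were seen, was the member with the lowest p by genotype field. It was at 7.95, 8.17, 7.95 and 7.82 in WT-named 1 to 4 and 7.66, 8.02, 7.72 and 8.33 in Qk-KO-named 1 to 4. The 4 libraries called Qk-KO by the genotype field were the highest, with the nearest 2 values equal at 2 decimals. The difference by genotype field was 0.33 (95% interval 0.05 to 0.61; limma, unadjusted p = 0.0253, adjusted p = 0.9995), and by sample name it was -0.04 (adjusted p = 0.958). The other members without overlap by genotype field were the complex I subunits Ndufa7 and Ndufb8, also named after their values were seen, with differences of 0.11 and 0.12.

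Complex II, which also serves the citric acid cycle, was the steadiest complex. All 4 genes had an SD over 8 libraries of 0.05 to 0.07 on the log2 scale. Sdha was at 13.24, 13.10, 13.20 and 13.17 in WT-named 1 to 4 and 13.29, 13.23, 13.20 and 13.22 in Qk-KO-named 1 to 4, overlapping groups that differed by 0.06 (95% interval -0.05 to 0.17; limma, adjusted p = 0.772). In complex III, 7 of 8 differences were above 0 and none had an unadjusted p under 0.05 in limma. Uqcr10, a small subunit, was at 10.27, 10.33, 10.19 and 10.34 in WT-named 1 to 4 and 10.44, 10.40, 10.33 and 10.47 in Qk-KO-named 1 to 4. Only Qk-KO-named 3 overlapped the WT values, and the difference was 0.13 (95% interval -0.01 to 0.27; limma, adjusted p = 0.617). Uqcrh differed by 0.12 (95% interval -0.01 to 0.24; limma, adjusted p = 0.631).

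In complex IV, the common subunits Cox6b1, Cox7a2, Cox7b and Cox8a differed by -0.04, -0.00, -0.05 and -0.04, with adjusted p of 0.835 or more in limma, and all 4 differences were above 0 with libraries centred on their medians. In complex V, 12 of 17 differences were above 0, and Atp5b, with values of 14.33 to 14.44 in WT-named and 14.35 to 14.51 in Qk-KO-named, differed by 0.06 (95% interval -0.06 to 0.18; limma, adjusted p = 0.774). Atp5g1 and Atp5g2 differed by -0.00 (95% interval -0.21 to 0.20; above 0 with libraries centred on their medians) and 0.03 (95% interval -0.09 to 0.14).

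Across all 8 libraries, whatever the grouping, the members were steadier than most genes of at least 1 CPM. Their median SD was 0.08 on the log2 scale against 0.15 for the 13463 tested genes at or above that level, and 56 of 85 (65.9%) had an SD under 0.1 against 3502 (26.0%). The members were also more abundant, with a median of 33.0 CPM against 17.8 CPM, and the part of abundance in this was not tested. The list of citric acid cycle and pyruvate dehydrogenase genes had a median SD of 0.07, with 11 of 16 (68.8%) under 0.1. The steadiest was Ndufs3, a core subunit of complex I, which ranged over 0.09 across the 8 libraries. An SD of 0.2 or more was seen in 4 of the 85, which were Ndufa4, Cox6a2, Ndufaf1 and Atp5g3.

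Qk-KO-named 3 had the lowest values of the set. It held the lowest value of 30 of the 85 members, against 4 to 13 in each other library, and the median member lay 0.07 below its own mean over all libraries there, against -0.02 to 0.04 elsewhere. The medians were negative for all 6 groups of genes in that library. They were also negative there for other lists described below: further assembly factors (-0.093), the citric acid cycle (-0.047), regulators (-0.016) and mitochondrially encoded subunits (-0.745). For glycolysis (0.048) and cytosolic ribosomal proteins (0.090) they were positive, and for all tested genes of at least 1 CPM the median was -0.001. The share of all genes lowest in that library was not counted. Summed over the 90 members, the signal of each library, taken off the log2 scale, was 3952 CPM in Qk-KO-named 3 and 4141 to 4527 in the other Qk-KO-named libraries, and 4110 to 4370 in WT-named. The means were 4244 ± 107 and 4198 ± 239.9 CPM (SD, n = 4 each), and the groups overlapped. Qk-KO-named 3 also had the lowest total and the lowest astrocyte, neuron, endothelial, mural and erythroid marker means, whose part was not tested.

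**Figure D4:**
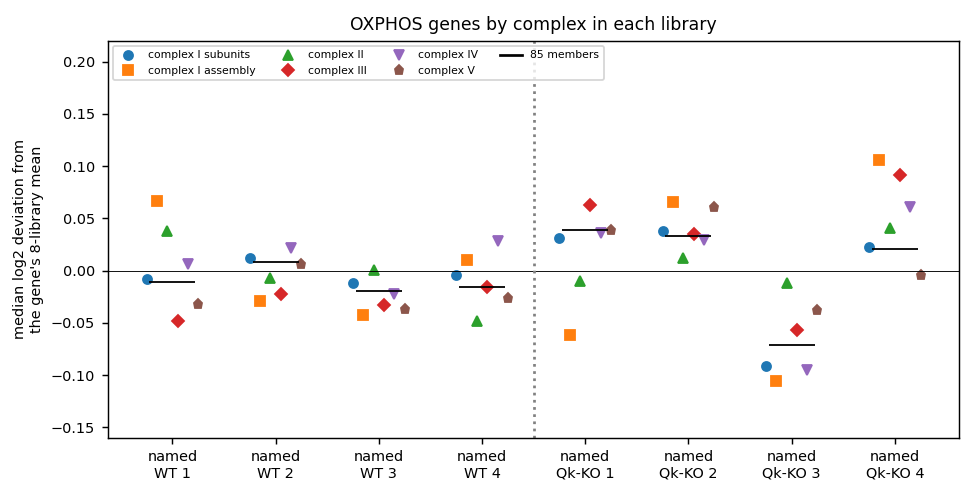
Median deviation of the members of each complex from the gene's mean over 8 libraries, on the log2 scale, in each library, with the median of the 85 members of at least 1 CPM as a black line. The black line lies lowest in Qk-KO-named 3, at -0.07, while complex II is lowest in WT-named 4, at -0.048 against -0.012 in Qk-KO-named 3.

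The mitochondrially encoded subunits, the partners of these proteins in the same complexes, mostly differed between libraries by many log2 units, and the libraries with high values were not the same from gene to gene. The complex IV core subunit mt-Co1 was at 18.00, 18.03 and 17.87 in WT-named 2, WT-named 3 and Qk-KO-named 4. It was at 2.96 to 3.53 in the other 5 libraries. These 5 low values rose as the size factor fell, and on the shrunken scale they may stand for no reads. The 3 high libraries are among the 4 called Qk-KO by the genotype field. The difference by that field was 11.07 (limma, unadjusted p = 0.0144, adjusted p = 0.9995). For mt-Nd3 the field groups did not overlap in the other direction. The libraries called Qk-KO by the field were at 1.92 to 2.24, and the rest at 2.31, 3.09, 11.13 and 11.71. The difference was -4.95 (limma, unadjusted p = 0.0709, adjusted p = 0.9995). The nearest values, 2.24 and 2.31, were both low, and 2.31 was in Qk-KO-named 3, which had the smallest size factor. The part of depth in this separation was not tested. The ATP synthase subunit mt-Atp6 was at 13.90 to 14.17 in WT-named 3, Qk-KO-named 2 and Qk-KO-named 3, also high in Qk-KO-named 1, and at 2.86 to 3.32 in the other 4. The complex I subunit mt-Nd2 was at 11.34 in Qk-KO-named 2 and at 0.89 to 1.23 elsewhere. In 11 of the 13 genes the libraries ranged over more than 6 log2 units, from 6.50 in mt-Nd6 to 15.07 in mt-Co1. The exceptions were mt-Nd5, which ranged over 0.80, and mt-Cytb, the complex III core subunit, which ranged over 0.39. No cause of these values was tested, and they limit any comparison of nuclear with mitochondrial transcripts here.

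For mt-Cytb the log2 values were 14.91, 14.96, 14.93 and 15.09 in WT-named 1 to 4 and 14.73, 14.88, 14.83 and 14.70 in Qk-KO-named 1 to 4. Every Qk-KO-named value lay below every WT-named value. The difference was -0.19 (SE 0.06, 95% interval -0.32 to -0.05; limma, unadjusted p = 0.0132, adjusted p = 0.485), and the authors' deposited table gave an adjusted p of 0.199. The named groups of mt-Nd1 and mt-Nd2 did not overlap in the other direction. Their WT-named values were 0.67 to 0.76 and 0.89 to 1.02, and their Qk-KO-named values 0.84 to 8.01 and 1.12 to 11.34. Apart from the high value of each in Qk-KO-named 2, both genes rose from library to library as the size factor fell. The size factors did not overlap between the named groups, so the separation of mt-Nd1 and mt-Nd2 cannot be told apart from depth. With these genes counted, 3 of the 13 (23.1%) did not overlap, against 5.73% of all genes. Of these, 1 was lower (2.70% of all genes) and 2 were higher (3.04%). Limma called 0 of the 13 genes by sample name, against 0.00444% of all genes tested. An unadjusted p under 0.05 was seen in 2 (15.4%), against 8.26% of all genes. These were mt-Cytb and mt-Nd4, which was at 12.56 to 13.28 in Qk-KO-named 1 to 3 and 2.99 in Qk-KO-named 4. The authors' deposited table gave an adjusted p for 4 and called 0, against 1.22% of its genes.

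**Figure D5:**
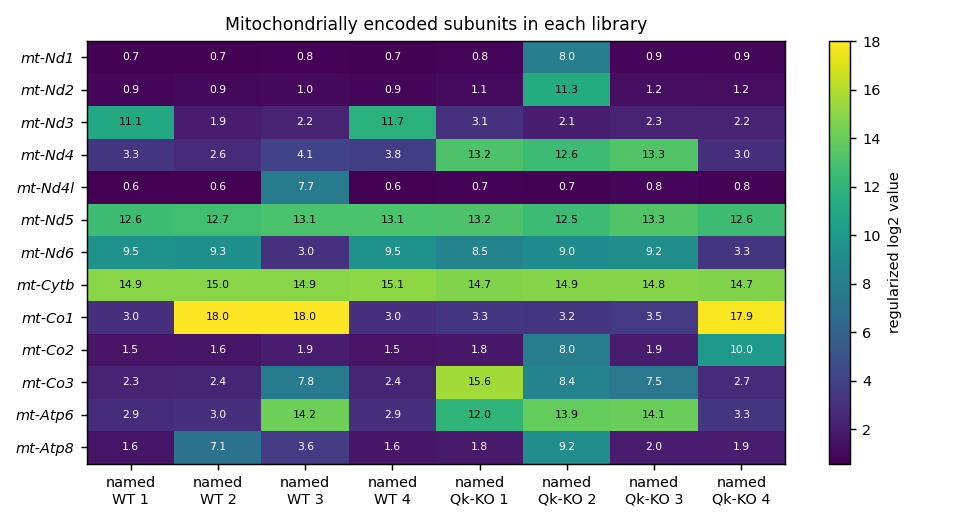
Regularized log2 value of the 13 mitochondrially encoded subunits in each library, with the value printed in each cell. mt-Cytb ranges over 0.39 and mt-Nd5 over 0.80, and the other 11 switch between low and high values from library to library.

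Other genes of the pathway were described from lists in the same way by sample name. Limma called 0 members of each at an adjusted p under 0.05, against 0.00444% of all genes tested. At an unadjusted p under 0.05 the shares of the lists, in the order below, were 2.13%, 8.33%, 12.5% and 16.7%. The share of all genes was 8.26%. Among 47 further assembly factors and partners, such as cytochrome c, the median difference was 0.01 and 1 was higher and 0 lower at an unadjusted p under 0.05, Cox14, an assembly factor of complex IV, with a difference of 0.24 (limma, adjusted p = 0.561). Among 12 regulators with reads the median was 0.04 and 1 was higher, Polg, the mitochondrial DNA polymerase, with a difference of 0.15 (95% interval 0.02 to 0.27; limma, adjusted p = 0.555). The coactivator Ppargc1a was at 0.690 CPM. Nrf1 and Gabpa, whose motifs are given above, differed by 0.09 and 0.08, with adjusted p of 0.730 and 0.808 in limma. Of 16 genes of the citric acid cycle and pyruvate dehydrogenase 2 were higher and 0 lower at that p, Dlst and Suclg2, with a median over the list of -0.02. In glycolysis, Eno1 and Pfkl were higher and Pfkp lower at that p among 18, with a median of 0.06. The authors' deposited table called Eno1, the glycolytic enolase, higher (adjusted p = 0.0480) and 0 genes of the other 3 lists, against 1.22% of all its genes. The genes given here were named after their values were seen.

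Genes of cytosolic ribosomal proteins, another group of abundant transcripts that encode a large complex, were counted in the same way. Of 82, limma called 0 by sample name, against 0.00444% of all genes tested. At an unadjusted p under 0.05, 55 (67.1%) were higher and 0 lower, against 8.26% of all genes in either direction. The median difference was 0.17 against 0.01 for the members. By genotype field 0 had an unadjusted p under 0.05, against 2.67% of all genes. The authors' deposited table gave an adjusted p for 80 of them and called 3, against 1.22% of its genes. These were Rpl12, Rpl23 and Rps21, all higher, with adjusted p of 0.00408, 0.0181 and 0.0226. Ribosomal protein genes have many similar pseudogenes, which were not examined here. Their summed signal was 35372 to 38816 CPM in WT-named and 40107 to 41207 CPM in Qk-KO-named and did not overlap, while that of the members did. The difference between the lists was not tested.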

How the data were processed

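Total RNA of 8 microglia libraries was sequenced. Tools named in the submitters' processing notes are FastQC, HISAT2, StringTie and DESeq2, with the build mm10. Versions, roles, strandedness and annotation release are not given in the sources used here. Values per library were deposited on a log2 scale. They were taken, from how they vary, to be regularized log2 values, in which low counts are shrunken. The deposited column of mean normalized signal (baseMean, per the file headers) was divided by 56.8 to give CPM. The authors' log2 fold change, its standard error, a p-value, its adjusted form and a test score are also given, per the file headers. No per-library counts were used, since the table as analysed here holds none.

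Limma 3.58.1 in R 4.3.3 (trend, robust) was fitted to the deposited log2 values of all 22546 genes that reached a log2 value of 0 in 4 or more libraries, once by sample name and once by genotype field, with Benjamini-Hochberg adjustment over all of them and a threshold of 0.05. The fit was tested on simulated data. The outcome is not given here, so that test lends no support to the results.

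Totals are rough. Genes with reads in 1 library gave what 1 read is worth, and the values off the log2 scale were summed. Length was the median APPRIS principal transcript of GENCODE M21 on GRCm38, chosen after merged exons of some genes were seen to be inflated by long models. Pseudogenes were matched with blastn 2.17.0 at 95% identity over 100 bases. In all, 23 members had 49 of them, and 32 members overlapped exons of another gene, 5 on the same strand. Alternatives were no filter, no trend, median-centred libraries, the replicate block, members of at least 1 CPM only, a threshold of 0.1 for the authors' adjusted p and leaving out each library.

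The members and lists were chosen with earlier results of these data known. Genes were named by a rule: the 4 highest and 4 lowest differences of members of at least 1 CPM, the highest level of each role group, tissue-restricted forms with their counterparts, the subunit c genes, assembly factors without overlap, and Qk. Others were named after their values were seen, as were the interval bounds of 0.3 and 0.5 and the printed promoters. A member is counted in the set but not reported by name here.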

Additional observations from a re-analysis of the deposited data

Results flagged for a closer look

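In groups of 4 libraries a value was flagged when its gap to the nearest other was large against the group's range (Dixon's 95% critical value). Over 56 groups checked, chance flags about 1 in 20, and 5 were flagged. Cox4i1 was at 13.74 in Qk-KO-named 1 against 13.60 to 13.62 in the other Qk-KO-named libraries. Cox7b, a complex IV subunit, was at 11.10 in Qk-KO-named 1 against 10.92 to 10.94. Cox8a was at 12.59 in Qk-KO-named 3 against 12.81 to 12.85. Atp5g3 was at 10.48 in WT-named 2 against 10.97 to 10.99 in the other WT-named libraries. The median deviation of the members of at least 1 CPM was -0.07 in Qk-KO-named 3 against 0.02 to 0.04 in the other Qk-KO-named libraries.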

How the results depend on the processing

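No alternative gave a member at an adjusted p under 0.05 in limma under either grouping; the smallest adjusted p of a member was 0.182 by sample name and 0.844 by genotype field. The count in the authors' deposited table stayed at 0 at a threshold of 0.1. With libraries centred on their medians, the median difference of the members by sample name became 0.0867, while that of all genes moved from -0.00 to 0.07, and the differences of Cox6a2 (0.0594), Cox6a1 (0.0593), Cox6b1 (0.0336), Cox7a2 (0.0730), Cox7b (0.0245), Cox8b (0.0744), Cox8a (0.0354), Atp5g1 (0.0728) and Atp5g3 (0.0632) turned positive. Leaving out each library in turn, the count of members at an unadjusted p under 0.05 by sample name, 3 with all libraries, ranged from 2 to 7, with 7 without Qk-KO-named 4. The count of members without overlap, 4 with all libraries, ranged from 4 to 12, with 12 without Qk-KO-named 3, 11 without Qk-KO-named 4 and 7 on leaving out either WT-named 3 or Qk-KO-named 1, against 7.89% to 15.7% of all genes over the same omissions. Over the same omissions the difference by sample name changed sign for Cox6a2 (-0.162 to 0.145), Cox6a1 (-0.0549 to 0.0298), Cox7a1 (-0.181 to 0.151), Cox7a2 (-0.0318 to 0.0255), Cox8b (-0.0920 to 0.0614), Cox8a (-0.0688 to 0.0190), Ndufa4l2 (-0.159 to 0.384), Atp5g1 (-0.0646 to 0.0471) and Atp5g3 (-0.138 to 0.0706). Of the genes that kept their sign, 12 moved by over 1.5 times on leaving out at least 1 library and 12 on centring. The median member difference ranged from 7.0e-05 to 0.0458 by sample name on leaving out each library, and by genotype field from 0.00206 without Qk-KO-named 3 to 0.0414 without WT-named 3, with 0.00304 on centring. The signs that changed are not stable, and 16 of the 27 named genes kept theirs under every alternative. With the replicate number as a paired replicate block, limma called 0 members, 3 had an unadjusted p under 0.05 and the median difference was 0.010. Deviations of same-numbered libraries correlated at 0.0462, 0.149, 0.274 and 0.458, and each Qk-KO-named library matched its own number best except number 1. The main fit did not pair libraries by number, and whether the numbers mark a shared batch was not tested. The cause of the changes under centring and without single libraries was not tested. The shrunken values hide changes of low genes, and no counting interval can be given per library.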
